A study of Rattus norvegicus with 6 samples.

Results

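Iron handling genes and lipocalin 2 were examined in rat PC12 cells that did or did not overexpress PCBP-1, an RNA-binding protein that also acts as a chaperone delivering cytosolic iron to ferritin. The genes were chosen by name: Lcn2, Fth1, Ftl1, Tfrc, Slc11a2, Slc40a1, Ncoa4, Ireb2, Aco1 and Hmox1. Of these 10 genes, 9 had a row under their symbol among the 20609 genes of the count table, and all 9 were among the 12624 genes with enough counts to be tested. Slc40a1, the iron exporter ferroportin, had no row under its symbol, and its expression was not analysed here.

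The series held poly-A RNA-seq libraries of PC12, an established line derived from a rat adrenal pheochromocytoma. A control plasmid had been introduced in 3 libraries (control), and the other 3 were labelled as overexpressing PCBP1 (PCBP1-OE). According to the methods, PCBP-1 was expressed with an EGFP tag. What the control plasmid encoded and which share of the cells took up either plasmid are not stated in the methods or the labels. The introduction of the study calls the overexpression stable, while its methods describe a transfection. They give a harvest time for RT-qPCR only, and none for the sequenced cells. The study calls the libraries of a group biological replicates, but neither the labels nor the methods tie them to separate cultures or transfections, so p-values measure only the spread between these libraries, which may be technical. No row was matched to Pcbp1, and the overexpression itself was therefore not checked in these counts. The study reports higher PCBP-1 in PCBP1-OE cells by RT-qPCR and by western blot.

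Total counts were 19730209 to 22315623 per library. Library labels were set against the defining markers of chromaffin cells, the cell type from which a pheochromocytoma arises. Of 9 chromaffin markers with a row, 5 had at most 10 counts in every library, namely Chga (0 to 3 counts), Dbh (0 to 5), Ddc (0 to 4), Chgb (0 to 9) and Phox2a (1 to 7). Th, which encodes tyrosine hydroxylase, had 141 to 185 counts and Scg2 had 2607 to 3553. Sox10 had 7160 to 9007 counts and S100b 4143 to 5339, both of them markers of glia, and Pdgfra, from the fibroblast list, had 3939 to 4941. The libraries therefore went against the defining chromaffin markers of their label, in both groups alike. In each of the 6 cell type lists, only 2 to 4 markers had enough counts to be tested. None of these differed between groups at an FDR of 0.05, beside 9.45% of all genes that did. The summed level of the glial list was 620 to 665 CPM in controls, compared with 587 to 607 in PCBP1-OE. That of the fibroblast list was 225 to 230 and 200.1 to 212. The part of these differences in the results on iron genes was not tested.

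Cells take up iron bound to transferrin through the transferrin receptor, move it out of endosomes with the transporter DMT1, and store what they do not use in ferritin, a shell of heavy and light chains. Stored iron is released when the receptor NCOA4 carries ferritin to lysosomes, surplus iron leaves through ferroportin, and heme oxygenase frees iron from heme. The RNA-binding proteins IRP1 and IRP2 sense iron and control the translation or stability of many of these transcripts, so that much of the control of iron does not appear as a change in RNA. Lipocalin 2 is a secreted protein that binds iron-carrying siderophores and is known as an acute-phase product of inflamed tissue.

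Of the 9 iron handling genes tested, Lcn2 was lower and Hmox1 was higher in PCBP1-OE, and the other 7 did not pass an FDR of 0.05. A gene was called when its p-value from edgeR's quasi-likelihood test, adjusted over all genes tested by the Benjamini-Hochberg method (FDR), was 0.05 or less. The 2 genes called made 22.2% of the 9, beside 9.45% of all genes tested. Genes called higher made 4.45% of all genes and genes called lower 5.0%. Lcn2, at the edge of that cutoff, was the only one of the 9 that also changed by at least 2-fold, as did 0.190% of all genes. In 3 of the 9 genes (33.3%) the levels of the groups did not overlap, beside 30.6% of all genes. The median log2 fold change was -0.015 over the 9 genes and 0.0029 over all genes, and under upper-quartile scaling it was 0.0045 and 0.023, so that the gap between them was -0.018 under both scalings. Among the 7 genes not called, log2 fold changes lay between -0.18 and 0.23, and 5 of the 7 were smaller in size than the median size over all genes (0.13).

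**Figure D1:**
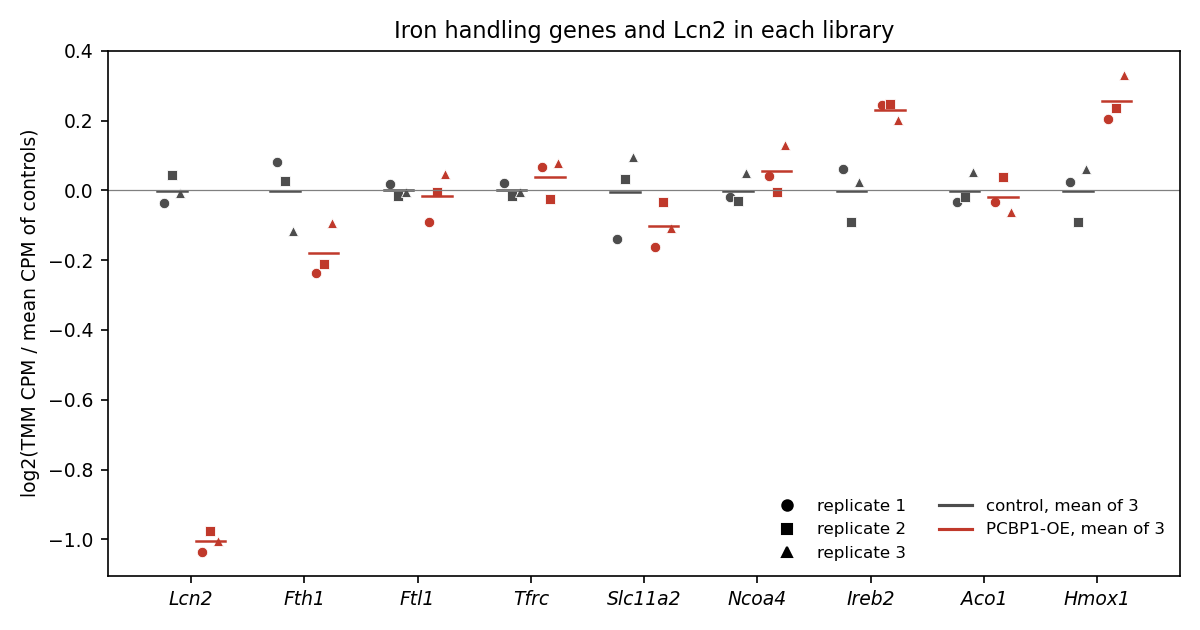
Level of each of the 9 iron handling genes in each library, as log2 of TMM CPM (counts scaled to library size) over the mean of the 3 controls, for controls (grey) and PCBP1-OE (red), with the replicate number as the symbol and the mean of the log2 ratios of each group as a line. Lcn2 lies near -1.0 in all 3 PCBP1-OE libraries, Hmox1 and Ireb2 lie above all controls there, and the groups of the other 6 genes overlap.

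Lcn2 (ENSRNOG00000013973, chromosome 3) fell by 50.2%. Levels are given as TMM CPM, which are counts divided by the library total after TMM scaling, a correction for differences in composition between libraries, and multiplied by 1e6. Lcn2 had 194, 218 and 226 counts in control replicates 1, 2 and 3, or 9.89, 10.4 and 10.1 TMM CPM. PCBP1-OE replicates 1, 2 and 3 had 109, 104 and 99 counts, or 4.95, 5.15 and 5.05 TMM CPM. All 3 PCBP1-OE libraries lay far below all 3 controls, and the spread within each group was small beside the gap. That spread comes from 3 libraries a group with low counts, so it is itself uncertain and no measure of precision. The mean level was 10.1 ± 0.280 in controls, compared with 5.05 ± 0.104 in PCBP1-OE (SD, n = 3 each), a fold of 0.498. On the log2 scale the fold change was -1.0, with a standard error of 0.12 (edgeR's quasi-likelihood test, FDR 0.00131). Lcn2 was called under all 14 alternative analyses, with FDR from 1.5e-09 to 0.0420 and log2 fold changes from -1.02 to -0.98. The study had chosen Lcn2 on these same libraries, so its direction here is not independent evidence. The study also reports a significant decrease in LCN2 by RT-qPCR, for which its methods name leftover total RNA. In bulk RNA, fewer cells that express a gene and less of its RNA per cell cannot be told apart.

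Leukocytes are a major source of lipocalin 2 in tissue, and their markers were uneven in these libraries. Cd14 had 698 to 887 counts, Cd68 56 to 81, Itgb2 58 to 73 and Lyz2 14 to 30. Of 11 leukocyte and macrophage markers with a row, 7 had at most 10 counts in every library, among them Ptprc (0 to 3 counts), Csf1r (1 to 4), Itgam (4 to 6) and Mpo (0 to 9). The summed level of the list was 44.8 to 51.1 TMM CPM in controls, compared with 39.4 to 46.3 in PCBP1-OE, with overlapping groups. None of its 4 members tested was called by edgeR's quasi-likelihood test, beside 9.45% of all genes. The part of leukocytes in the level of Lcn2 was not tested.

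The promoter of Lcn2 is shown because this gene changed most among the 9. The 250 bases before the transcription start were taken from RefSeq (assembly GRCr8, which is not the build to which the reads were aligned) and are printed 5′ to 3′ on the strand of the gene. For comparison, the same window is given for complement C3, the gene of the acute-phase list with the lowest fold change among those called, chosen after its value was seen. The Lcn2 window is chr3:36081781-36082030 on the minus strand and the C3 window is chr9:2201340-2201589 on the minus strand. Capitals mark letters that match the consensus for NF-kB (in Lcn2, the run that begins with GGAA) or the C/EBP pattern TTNNGNAA, where N is any base.
Lcn2: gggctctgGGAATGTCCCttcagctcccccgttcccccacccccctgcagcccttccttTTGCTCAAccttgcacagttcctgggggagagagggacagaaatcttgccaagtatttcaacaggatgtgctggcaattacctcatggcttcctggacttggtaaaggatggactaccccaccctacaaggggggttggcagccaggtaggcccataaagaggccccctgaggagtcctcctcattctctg
C3: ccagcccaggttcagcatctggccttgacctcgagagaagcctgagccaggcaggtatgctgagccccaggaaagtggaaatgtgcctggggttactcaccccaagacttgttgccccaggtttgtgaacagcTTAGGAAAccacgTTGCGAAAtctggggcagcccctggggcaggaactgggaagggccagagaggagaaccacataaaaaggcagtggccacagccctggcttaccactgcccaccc
Positions are counted back from the start site, with the first base before it as -1. In Lcn2 the NF-kB match begins at -242 and the C/EBP match at -191, and in C3 there are C/EBP matches at -117 and -104. The window of C3 holds no NF-kB match. Il6st, which rose as described further on, has C/EBP matches at -141 and -86, so the pattern was found before genes that changed in either direction. Both strands were searched. Of 33469 rat windows of this length, 3.54% held the NF-kB consensus and 37.2% the C/EBP pattern, so the C/EBP match is common.

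Windows were found for 7 of the 10 iron handling genes (Slc40a1 included), 8 windows in all because Slc11a2 had a pair, and Fth1, Ftl1 and Hmox1 had none in the table used. None of the other 6 genes held the NF-kB or the C/EBP letters. Runs of 6 C, looked for because PCBP-1 is known to bind poly-C, were found in Lcn2 (at -211 and -62) and Ireb2 (at -189), and in 14.1% of all windows. The Lcn2 match at -62 reads as 6 G in the printed letters, so its run of C lies on the opposite strand. The hypoxia response core ACGTG was found in Tfrc (at -31) and Ncoa4 (at -75), and in 16.6% of all windows. The core TGACNNNGC of the antioxidant response element was found in Ncoa4 alone (at -52), beside 10.1% of all windows. TATAAA, present in 12.9% of all windows, was also found in Ncoa4 alone (at -19). The STAT pattern TTCNNNGAA, in 7.67% of all windows, matched none of the 7 genes. In C3, ACGTG at -108 lies on the opposite strand and reads CACGT in the printed letters. Its last printed base overlaps the C/EBP match at -104. Such matches describe letters in a window and say nothing of whether a factor binds there.

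The genes whose pattern over the 6 libraries was most like that of Lcn2 were sought among 9546 genes with a mean of at least 5 TMM CPM. Likeness was the root mean square difference between centred log2 levels, where 0 is an identical pattern. Because Lcn2 separated the groups, genes picked for likeness to it were bound to fall too. Their fold changes and FDR therefore describe the choice and are no further evidence. The nearest were a row named Hspa8 on chromosome 5 (ENSRNOG00000032585, 0.229), Socs1 (0.270), Impa2 (0.277), Fam19a5 (0.289) and Gnb1l (0.290). Socs1, which encodes an inhibitor of cytokine signalling, fell with a log2 fold change of -0.53 (SE 0.15, edgeR FDR 0.0461). On the same scale the Hspa8 row fell by 0.69 (SE 0.17, edgeR FDR 0.0256), from 146, 141 and 120 counts in controls to 78, 87 and 83. Hspa8 has many near-identical copies, and its reads may have been divided among them. Impa2 fell by 0.57 and Fam19a5 by 0.44 (edgeR FDR 0.0354 and 0.0292), and Gnb1l had a log2 fold change of -0.44 and was not called (edgeR FDR 0.0520).

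Neither gene of iron uptake was called. Tfrc (ENSRNOG00000001766, chromosome 11), the transferrin receptor, had 147, 143 and 144 TMM CPM in controls, compared with 151, 142 and 152 in PCBP1-OE. The lowest of the 6 libraries was a PCBP1-OE library, and the groups overlapped. Means were 144 ± 1.98 and 148 ± 5.74 (SD, n = 3 each), with a log2 fold change of 0.04 (SE 0.04, edgeR FDR 0.598, and 0.408 to 0.833 over the alternatives). Slc11a2 (ENSRNOG00000019550, chromosome 7), which encodes DMT1, had 48.1, 54.2 and 56.6 TMM CPM in controls, compared with 47.3, 51.7 and 49.2 in PCBP1-OE. Control replicate 1 lay within the range of PCBP1-OE. Slc11a2 had a log2 fold change of -0.10 (SE 0.07, edgeR FDR 0.330), and it was called under none of the 14 alternatives.

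Ferritin transcripts were examined as heavy chain, light chain and their near copies. Fth1 (ENSRNOG00000022619, chromosome 1) encodes the heavy chain, which oxidises iron on entry. Its level was 6054, 5821 and 5277 TMM CPM in controls, compared with 4857, 4938 and 5358 in PCBP1-OE. Control replicate 3 was the lowest control and PCBP1-OE replicate 3 the highest of its group, and these libraries crossed. Means were 5717 ± 398 and 5051 ± 269 (SD, n = 3 each), a difference of -11.7%. The log2 fold change of -0.18 (SE 0.06) missed the threshold in edgeR's quasi-likelihood test (FDR 0.0620). Fth1 was called under 4 of the 14 alternatives: DESeq2 (FDR 0.0183), edgeR with no filter on low counts (FDR 2.4e-05), and edgeR without control replicate 3 (FDR 0.00195) or without PCBP1-OE replicate 3 (FDR 0.0380). Over all alternatives the log2 fold change lay between -0.23 and -0.13 and the highest FDR was 0.241.

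Ftl1 (ENSRNOG00000020843, chromosome 1) encodes the light chain, which helps the iron core to form. It had 3012, 2941 and 2962 TMM CPM in controls, compared with 2791, 2960.4 and 3071 in PCBP1-OE. PCBP1-OE libraries included both the lowest and the highest of the 6. The log2 fold change was -0.02 (SE 0.05, edgeR FDR 0.857), and its sign turned under upper-quartile scaling (0.0045) and when control replicate 1 or PCBP1-OE replicate 1 was left out.

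Light-chain reads were split between Ftl1 and rows for near copies, so single rows are uncertain. In all, 9 rows were named as ferritin light chains. LOC100360087 (ENSRNOG00000031506, chromosome 5, described as ferritin light chain 1-like) held 58.5% to 60.9% of the light-chain counts of a library and Ftl1 38.9% to 41.2%. The level of LOC100360087 was 4395 ± 101 TMM CPM in controls, compared with 4382 ± 426 in PCBP1-OE (SD, n = 3 each; log2 fold change -0.0042, edgeR FDR 0.972). A further copy, LOC100362384 on chromosome 13, had 181 to 357 counts per library, with a log2 fold change of 0.06 (edgeR FDR 0.861). The sum of all light-chain rows, taken after the data were seen, was 7383 ± 140 TMM CPM in controls, compared with 7340 ± 566 in PCBP1-OE. This sum had a log2 fold change of -0.0084 (SE 0.05, edgeR FDR 0.937). Ferritin rows together took 1.2% to 1.32% of all counts, and Fth1 alone took 0.501% to 0.586%.

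**Figure D2:**
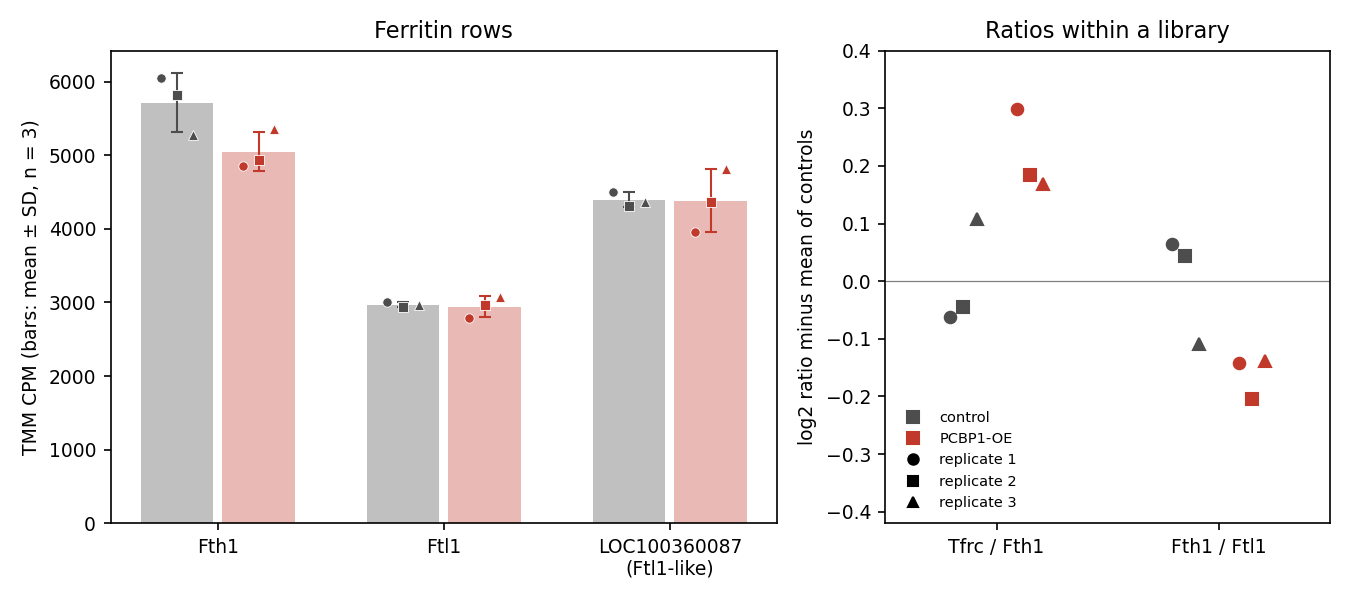
Left, TMM CPM of Fth1, Ftl1 and the light-chain copy LOC100360087 in each library (points), with bars for the mean and error bars for the SD of 3 controls (grey) or 3 PCBP1-OE libraries (red), on an axis that starts at 0. Right, log2 ratios of Tfrc to Fth1 and of Fth1 to Ftl1 in each library, minus the mean of the controls. The means of Fth1 differ by -11.7% while its replicates 3 cross, and both ratios separate the groups.

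Ratios within a library do not depend on the scaling between libraries. The log2 ratio of Tfrc to Fth1, uptake against storage, was -5.37, -5.35 and -5.20 in controls, compared with -5.01, -5.12 and -5.14 in PCBP1-OE. All PCBP1-OE values were above all controls, by 0.22 on average and by 0.18 to 0.27 with any 1 library left out. The log2 ratio of Fth1 to Ftl1 was 1.01, 0.98 and 0.83 in controls, compared with 0.80, 0.74 and 0.80 in PCBP1-OE, lower in every PCBP1-OE library. The mean difference was -0.16, with a range from -0.22 to -0.13 when 1 library was left out, and it was -0.17 against the sum of light-chain rows. The ratios are of counts per gene rather than per length, so that their differences between libraries can be read and their levels cannot. They were not tested, and Fth1 enters each of them.

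Ncoa4 (ENSRNOG00000019768, chromosome 16), the receptor that takes ferritin to lysosomes, had 157, 156 and 165 TMM CPM in controls, compared with 164, 159 and 174 in PCBP1-OE. The groups overlapped, and the log2 fold change of 0.06 (SE 0.05) was not called (edgeR FDR 0.477) under any of the 14 alternatives either.

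Neither transcript of the iron regulatory proteins was called. Ireb2 (ENSRNOG00000013271, chromosome 8) encodes IRP2, which is degraded when iron is plentiful. It had 377, 361 and 420 counts in controls, or 19.2, 17.3 and 18.7 TMM CPM. In PCBP1-OE it had 481, 441 and 415 counts, or 21.8, 21.9 and 21.2 TMM CPM. All PCBP1-OE levels were above all controls, with means of 18.4 ± 1.00 and 21.6 ± 0.379 (SD, n = 3 each), a difference of 17.4%. The log2 fold change of 0.23 (SE 0.08) did not pass the threshold (edgeR FDR 0.0846), nor did it in any alternative (FDR 0.0582 to 0.256). Aco1 (ENSRNOG00000005849, chromosome 5) encodes IRP1, which is a cytosolic aconitase when it holds an iron-sulfur cluster. Its level was 92.5 ± 2.97 TMM CPM in controls (90.3, 91.3 and 95.8) and 91.3 ± 3.34 in PCBP1-OE (90.4, 95.0 and 88.5). The log2 fold change was -0.02 (SE 0.05, edgeR FDR 0.835), and its sign turned under upper-quartile scaling (0.0014) and when control replicate 3 or PCBP1-OE replicate 3 was left out. The difference between the 2 genes' changes was not tested.

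Export could not be described through Slc40a1. A row described as solute carrier family 40 member 1-like (LOC100911874, chromosome 9) had 10, 2 and 6 counts in controls, compared with 14, 8 and 3 in PCBP1-OE, too few to be tested, and it was not counted as Slc40a1.

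Hmox1 (ENSRNOG00000014117, chromosome 19) rose. It encodes heme oxygenase 1, the stress-inducible enzyme that opens the heme ring and frees its iron. Control libraries had 17913, 17586 and 21015 counts, or 914, 843 and 937 TMM CPM. PCBP1-OE libraries had 22776, 21344 and 22130 counts, or 1034, 1058 and 1129.8 TMM CPM. All PCBP1-OE levels were above all controls. The mean was 898 ± 49.2 in controls, compared with 1074 ± 50.05 in PCBP1-OE (SD, n = 3 each), an increase of 19.6%. Hmox1 had a log2 fold change of 0.26 (SE 0.05, edgeR FDR 0.0138), and it was 0.22 to 0.29 over the 14 alternatives. The call was kept under 11 of them and lost without control replicate 2 (edgeR FDR 0.0701), without PCBP1-OE replicate 2 (0.0582) and with the replicate number as a block (0.107).

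**Figure D3:**
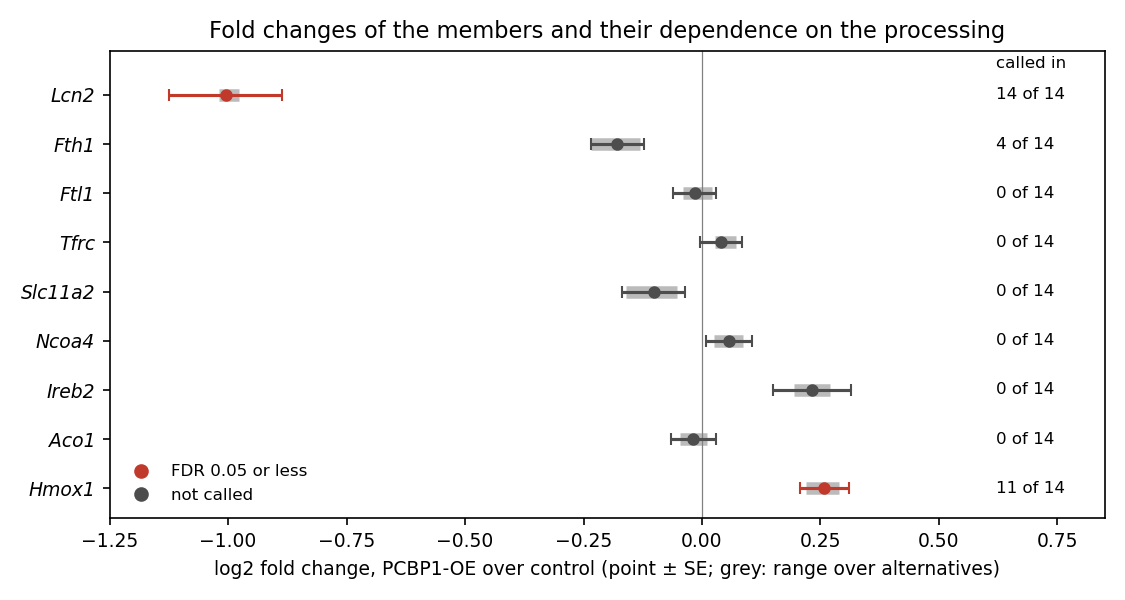
Log2 fold change of each of the 9 iron handling genes, PCBP1-OE over control, with bars of 1 standard error derived from the F statistic of edgeR's quasi-likelihood test, a grey band for the range over the 14 alternative analyses, and the number of alternatives in which the gene was called. Lcn2 was called in 14 of 14, Hmox1 in 11 and Fth1 in 4, and the bands of Ftl1 and Aco1 cross 0.

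The other genes of iron biology were taken from 10 lists by role, in which 152 rows were found and 125 were tested. Their changes are given on the log2 scale. Of these 125 genes, 13 were called by edgeR's quasi-likelihood test (10.4%, beside the 9.45% of all genes), 3 higher and 10 lower, and 36.0% did not overlap between groups, beside 30.6% of all genes. With upper-quartile scaling they were 4 higher against 5 lower. For all genes tested 562 calls were higher with PCBP1-OE against 631 lower, which upper-quartile scaling turned to 655 against 427. The median log2 fold change of the 125 was -0.052, and 78 lay below 0. Calls in the lists rested on which libraries were used: none of the 125 was called when control replicate 1 or 2 or PCBP1-OE replicate 1 or 2 was left out (27 to 29 had an unadjusted p below 0.05 in those edgeR fits), 31 were called without control replicate 3, and 7 without PCBP1-OE replicate 3.

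Of 11 genes of iron uptake and transport, 0 were called by edgeR's quasi-likelihood test, beside 9.45% of all genes. In a list this short, 0 calls lie near that share, and 3 genes had an unadjusted p below 0.05. DESeq2, edgeR's exact test and limma-voom called 0 as well. The median log2 fold change was -0.028. The smallest p belonged to Steap3, a ferrireductase of the endosome, at -0.14 (SE 0.05, edgeR FDR 0.0821). Tf, which encodes transferrin, was at -0.08 (FDR 0.438). Tfr2, the second transferrin receptor, was at 0.04 (FDR 0.918).

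In the list of iron export and systemic regulation 0 of 5 genes were called by edgeR's quasi-likelihood test, beside 9.45% of all genes. With so few genes, 0 calls lie near that share. An unadjusted p below 0.05 was found for 2 of them, and DESeq2, the exact test and limma-voom called 1 each. The median was 0.024 and fell below 0 without 1 of the libraries (lowest -0.033). Cp, which encodes the ferroxidase ceruloplasmin, had 41.1, 42.8 and 46.6 TMM CPM in controls, compared with 36.5, 39.8 and 33.1 in PCBP1-OE, with no overlap and a log2 fold change of -0.25 (SE 0.07, edgeR FDR 0.0503), and it was called under 4 of the 14 alternatives. Hamp, which encodes the hormone hepcidin, had 7 to 14 counts per library and a log2 fold change of 0.02 (edgeR FDR 0.977). Hepatocytes are the main source of transferrin, ceruloplasmin and hepcidin. The summed hepatocyte markers were 10.5 to 15 TMM CPM in controls, compared with 10.5 to 13.02 in PCBP1-OE. These markers were uneven: Alb had 0 to 6 counts, Fga 0 to 4 and Apob 0 to 1. Serpina1 had 150 to 215 counts, Apoa1 23 to 56 and Ttr 27 to 40.

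Among genes of ferritin delivery and turnover 1 of 9 was called (11.1%, beside 9.45% of all genes), Fbxl5, with a list median of 0.011. Fbxl5 encodes an iron-sensing subunit of the ubiquitin ligase that degrades IRP2. It had 46.2, 48.8 and 49.1 TMM CPM in controls, compared with 58.8, 56.6 and 53.9 in PCBP1-OE, with all PCBP1-OE levels above all controls. Fbxl5 had a log2 fold change of 0.23 (SE 0.06, edgeR FDR 0.0243, and 0.0025 to 0.128 over the alternatives, called in 9 of 14). Pcbp2, a paralog of PCBP1 that is also an iron chaperone, was at 0.03 (SE 0.04, FDR 0.730). Outside the 10 genes, 0 of 3 transcripts known to bear iron-responsive elements were called, too few to be set apart from the 9.45% of all genes. None had an unadjusted p below 0.05, and DESeq2, the exact test and limma-voom called 0. Their median was 0.030.

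Heme synthesis genes were called in both directions, 1 higher and 2 lower of 13 (23.1%, beside 9.45% of all genes called, 4.45% higher and 5.0% lower), with a median of -0.064. Cpox, coproporphyrinogen oxidase, rose from 29.8, 30.9 and 30.1 TMM CPM in controls to 38.0, 35.7 and 35.6 (log2 fold change 0.27, SE 0.06, edgeR FDR 0.0230, called in 9 of 14 alternatives). Tmem14c, which moves a heme precursor across the mitochondrial membrane, fell by 0.18 (FDR 0.0415, 8 of 14). Tspo, an outer mitochondrial membrane protein that binds porphyrins and cholesterol, fell by 0.20 (FDR 0.0464, 6 of 14). The summed erythroid markers were 2.50 to 3.48 TMM CPM in controls, compared with 2.25 to 3.07 in PCBP1-OE.

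Of 10 genes of heme breakdown and heme transport outside Hmox1, 2 were called, both lower, beside 5.0% of all genes called lower. Blvrb encodes the beta form of biliverdin reductase. It had 112, 113 and 101.05 TMM CPM in controls, compared with 91.1, 88.8 and 96.6 in PCBP1-OE, with no overlap (log2 fold change -0.24, SE 0.05, edgeR FDR 0.0208, called in 9 of 14). Por, the reductase that passes electrons to heme oxygenase and to cytochromes P450, fell by 0.19 (SE 0.04, FDR 0.0266, called in 8 of 14). Blvra, the biliverdin reductase that takes up the product of heme oxygenase, had 21 to 43 counts per library and was at -0.26 (SE 0.29, edgeR FDR 0.601, chosen for naming after its value was seen). Hmox2, the constitutive heme oxygenase, was at -0.19 (FDR 0.0726, called in 2 of 14). Bach1, a heme-binding repressor of Hmox1, had 15 to 34 counts per library and was at 0.28 (SE 0.35, FDR 0.635). The list median was -0.12, and it was 0.030 at its highest when 1 library was left out.

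Iron-sulfur cluster genes lay mostly below 0, with 26 of 31 log2 fold changes negative and a median of -0.063, beside 0.0029 for all genes. The median stayed between -0.094 and -0.043 under every alternative. Of the 31 genes, 2 were called, both lower. Nubp1, an assembly factor of the cytosol, fell by 0.21 (SE 0.05, edgeR FDR 0.0197, 8 of 14), and Cisd1, a cluster protein of the outer mitochondrial membrane, fell by 0.19 (SE 0.05, FDR 0.0395, 7 of 14). The share called, 6.45%, was below the 9.45% of all genes. Of 17 ferroptosis genes, 1 was called (5.88%, beside 9.45% of all genes), and the median was -0.071. Gpx4, the glutathione peroxidase that removes lipid peroxides, had 399, 413 and 371 TMM CPM in controls, compared with 323, 337 and 365 in PCBP1-OE. PCBP1-OE replicate 3 and control replicate 3 were close to each other but did not cross (log2 fold change -0.21, SE 0.05, edgeR FDR 0.0372, called in 9 of 14).

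**Figure D4:**
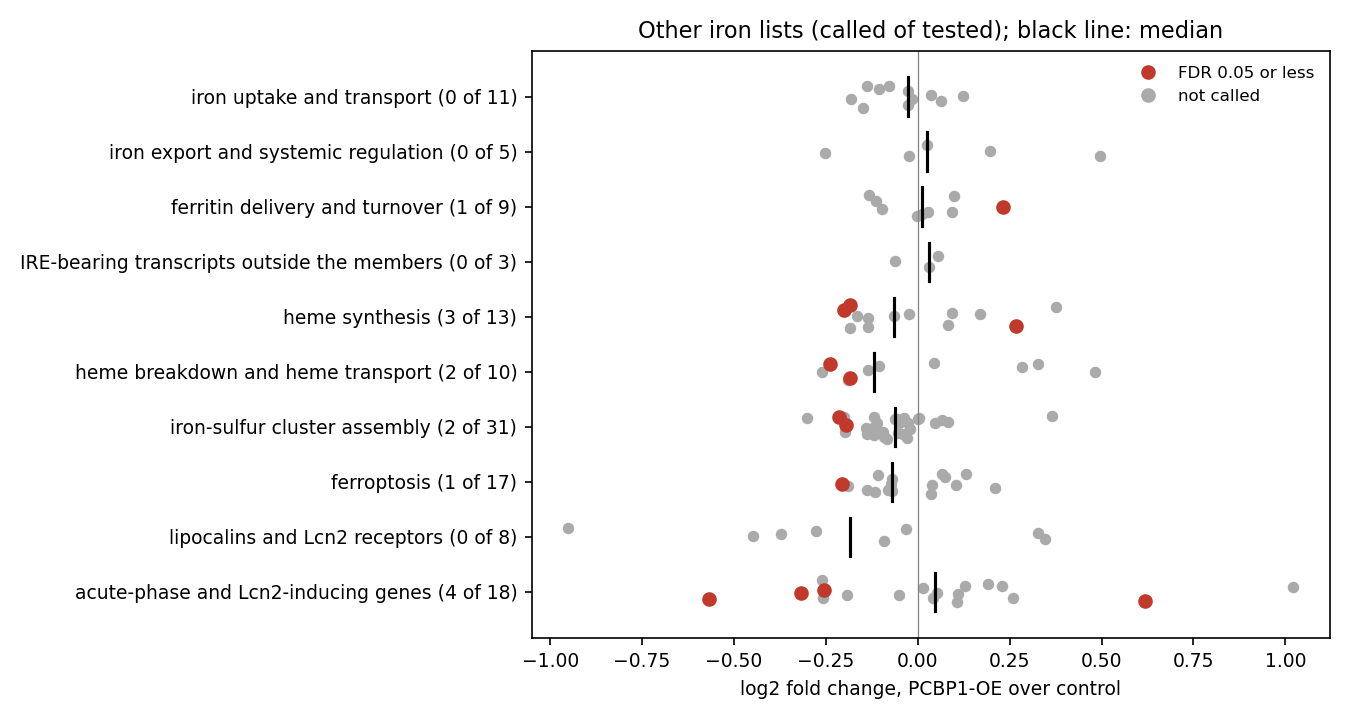
Log2 fold change, PCBP1-OE over control, of each gene tested in the 10 other iron lists (points, red where FDR was 0.05 or less, grey where not called), with the list median as a black line and the number called of those tested beside each name. Most called genes lie within 0.3 of 0, Il6st and C3 lie beyond 0.5, and iron-sulfur cluster genes sit mostly to the left of 0.

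The next list held lipocalins, receptors of lipocalin 2 and its partners, which include Mmp9 and Hgf. Of its 8 genes tested, 0 were called by edgeR's quasi-likelihood test, beside 9.45% of all genes. In a list this short, 0 calls lie near that share, and 3 unadjusted p-values were below 0.05. DESeq2, the exact test and limma-voom called 0. The list median was -0.18. Slc22a17, a receptor of lipocalin 2, had 410, 396 and 419 counts in controls, compared with 396, 275 and 326 in PCBP1-OE, and in TMM CPM every PCBP1-OE level was below every control. Slc22a17 had a log2 fold change of -0.28 (SE 0.11, edgeR FDR 0.109, and 0.0591 to 0.369 over the alternatives). Lcn12, a lipocalin on the same chromosome as Lcn2, had 29, 14 and 22 counts in controls, compared with 14, 5 and 14 in PCBP1-OE. The groups overlapped, and the log2 fold change of -0.95 (SE 0.42) was not called (edgeR FDR 0.156), in a gene named here after its value was seen. Lcn3, which was outside the list, is a row on that chromosome too and went from 211, 218 and 230 counts to 198, 166 and 200, with a log2 fold change of -0.20 (SE 0.12, FDR 0.284).

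Acute-phase genes and genes known to induce lipocalin 2 were called in 4 of 18 cases (22.2%, beside 9.45% of all genes), 1 higher and 3 lower (beside 4.45% and 5.0% of all genes), with a median of 0.048. Il6st, which encodes the signalling receptor gp130 of the interleukin 6 family, rose. Its counts were 561, 518 and 821 in controls, compared with 1031, 1030 and 796 in PCBP1-OE, and after scaling the groups did not overlap. The log2 fold change was 0.62 (SE 0.12, edgeR FDR 0.0120, with 0.107 as the highest over the alternatives, called in 9 of 14). C3, the central complement component, fell from 200, 139 and 194 counts to 130, 109 and 115 (log2 fold change -0.57, SE 0.16, edgeR FDR 0.0420, with 0.180 as the highest, called in 7 of 14). Cebpd, a transcription factor of the acute phase, fell from 631, 811 and 706 counts to 546, 562 and 581 (log2 fold change -0.32, SE 0.09, edgeR FDR 0.0477, with 0.227 as the highest, called in 7 of 14). The metallothionein Mt2A, a metal-binding protein, fell by 0.26 (SE 0.07, FDR 0.0491, called in 5 of 14), and its groups overlapped, since PCBP1-OE replicate 3 (60.3 TMM CPM) lay above control replicate 3 (58.8).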

How the data were processed

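Poly-A RNA of 6 libraries of PC12 cells was sequenced, 3 control and 3 PCBP1-OE. The values deposited by the authors are raw read counts, 1 row a gene. The methods state that FASTX-Toolkit was used for cleaning and TopHat2 for alignment against Rnor_6.0, and that only unique alignments were counted. Labels and methods both describe a stranded library kit. The counting program, whether it used strand, and the annotation release are not stated. The submitters' processing notes name a human build, while the gene identifiers are rat, and the library kit differs between the labels and the methods. The depth was 19730209 to 22315623 counts a library, and counting error is largest for low genes such as Lcn2.

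Libraries were grouped by their labels. Differences were tested by edgeR's quasi-likelihood method (version 4.0.16 in R 4.3.3), run on the 12624 genes that passed filterByExpr (minimum count 10, minimum total 15) and scaled by TMM. P-values were adjusted by the Benjamini-Hochberg method over all of them. Each standard error (SE) is the size of the log2 fold change divided by the square root of the F statistic of that test. The code was tested on simulated data. In 14 alternatives the scaling was RLE or upper-quartile, low genes were all kept or held to 1 CPM in 3 libraries, the test was DESeq2 (1.42.0), the exact test of edgeR or limma-voom (3.58.1), replicate numbers formed a block, or 1 library was omitted.

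The iron handling genes and lists were chosen with earlier results of these data known. Named from the lists are 8 genes picked by role, up to 4 called genes in each direction per list, the smallest p where none was called, the 4 near copies with the most counts and the 5 genes nearest to Lcn2. Symbols came from the deposited table or from synonyms in RefSeq (GRCr8), which also gave the promoters. Genes without a matched row were not analysed here. A gene of the lists that the rule names is not reported here.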

Additional observations from a re-analysis of the deposited data

How the results depend on the processing

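Leaving out 1 library moved the number of genes called from 1193 to between 48 (without control replicate 2) and 2860 (without control replicate 3). It moved the iron handling genes called from 2 to between 1 and 3 (3 without either replicate 3, 1 without either replicate 2), and the calls in the iron lists from 13 to between 0 and 31. With no filter on low counts 2090 genes were called, and 21 in the iron lists. The causes were not tested. Signs turned for 4 of the 31 genes named: under upper-quartile scaling for Ftl1 (0.0045) and Aco1 (0.0014), and with 1 library left out for Ftl1 (-0.040 to 0.021), Aco1 (-0.047 to 0.010), Bach1 (-0.14 to 0.55) and Hamp (-0.28 to 0.28). Lcn2 was called throughout. Scaling moved the median of all genes by at most 0.0198.

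Libraries with the same replicate number did not deviate together (r of -0.0776, -0.0514 and -0.0428 across genes), so the numbers were not taken as pairs. With the replicate block, 16 genes were called, 14 higher and 2 lower, with 1 iron handling gene (Lcn2) and 0 list genes among them (30 list genes had an unadjusted p below 0.05). At this depth, changes of genes with few counts, such as Hamp or the ferroportin-like row, are not resolved.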
